A study of Mus musculus with 29 samples.

Results

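Phototransduction shutoff was followed through 10 genes of the mouse retina, Sag, Arr3, Arrb1, Grk1, Rcvrn, Guca1a, Guca1b, Gucy2e, Gucy2f and Pdc, out of 24062 genes in the deposited RNA-seq table. A row was taken when its gene symbol equalled one of these names, and the rule used no measured value. Bipolar cells, the interneurons that receive input from photoreceptors, were sorted from mice carrying GFP at 1 allele of the endogenous Otx2 gene (Otx2-GFP+/-), in which bipolar cells glow brightly and photoreceptors weakly. Pan-bipolar RNA libraries (pan-BC) came from Otx2-GFP+/- animals of postnatal day 44 to 47, and ON (ON-BC) and OFF (OFF-BC) bipolar RNA libraries from Otx2-GFP+/-; Grm6-YFP+/+ animals of day 42 to 48, in which the Grm6 promoter drives YFP in ON bipolar cells. OFF-BC were sorted again immediately, and every other bipolar library came from a single sort. Rods were sorted once from Nrl-eGFP mice and blue cones once from Nrl-eGFP;NrlKO mice, both at day 56, so that the blue cones are the photoreceptors of a retina without Nrl and serve as a surrogate for native short-wavelength cones. Each of these 5 populations had 3 RNA-seq libraries. ATAC-seq, which counts reads in accessible chromatin, had 2 libraries each for pan-BC, ON-BC and OFF-BC (all labelled Otx2-GFP+/-; Grm6-YFP+/+, day 42 to 46), rods, blue cones and green cones (Opn1mw-GFP, day 56). The photoreceptor libraries were re-analysed from earlier work and came from other mouse lines. Study, age, genotype and cell class therefore cannot be told apart in any bipolar against photoreceptor difference, and number of sorts cannot be told apart from ON or OFF identity. In RNA, pan-BC also differed in genotype from ON-BC and OFF-BC, which cannot be told apart from population there.

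In a photoreceptor, light-activated opsin starts a cascade that closes cyclic GMP-gated channels, and the response ends only when each activated step is turned off. The opsin is phosphorylated by opsin kinase and capped by arrestin, while guanylate cyclases, stimulated by their activating proteins when calcium falls, resynthesise cyclic GMP. Sag encodes the visual arrestin of rods, Arr3 cone arrestin, and Arrb1 the widely expressed beta-arrestin. Grk1 encodes opsin kinase, and Rcvrn recoverin, the calcium sensor that restrains it. Gucy2e and Gucy2f encode the retinal membrane guanylate cyclases, and Guca1a and Guca1b the guanylate cyclase activating proteins. Pdc encodes phosducin, which binds the beta-gamma subunits of transducin.

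The 4 promoters shown here belong to the visual arrestins and the retinal cyclases, pairs of related genes with unlike profiles across the populations, and each line holds the 250 bases before the RefSeq start on GRCm38.p6, read 5′ to 3′ on the strand of the gene. Capitals mark TAATCC on either strand (GGATTA on the other), the core bound by K50 homeodomain factors such as CRX and OTX2, and TAATTA, a core bound by Q50 homeodomain factors.
Sag, chr1:87803430-87803679, plus strand: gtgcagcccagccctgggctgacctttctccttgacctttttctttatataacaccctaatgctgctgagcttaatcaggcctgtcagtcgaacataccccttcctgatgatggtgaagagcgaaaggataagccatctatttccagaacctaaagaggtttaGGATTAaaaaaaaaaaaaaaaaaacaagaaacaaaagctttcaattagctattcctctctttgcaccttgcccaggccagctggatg
Arr3, chrX:100605247-100605496, plus strand: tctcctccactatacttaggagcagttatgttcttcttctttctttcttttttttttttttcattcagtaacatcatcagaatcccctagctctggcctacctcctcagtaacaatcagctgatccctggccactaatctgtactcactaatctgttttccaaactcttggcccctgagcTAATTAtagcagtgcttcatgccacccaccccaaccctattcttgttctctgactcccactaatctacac
Gucy2e, chr11:69237023-69237272, minus strand: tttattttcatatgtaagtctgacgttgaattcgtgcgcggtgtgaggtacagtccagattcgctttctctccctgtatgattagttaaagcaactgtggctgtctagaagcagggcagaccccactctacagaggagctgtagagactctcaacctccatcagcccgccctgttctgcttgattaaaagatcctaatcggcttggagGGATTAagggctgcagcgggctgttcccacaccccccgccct
Gucy2f, chrX:142196937-142197186, minus strand: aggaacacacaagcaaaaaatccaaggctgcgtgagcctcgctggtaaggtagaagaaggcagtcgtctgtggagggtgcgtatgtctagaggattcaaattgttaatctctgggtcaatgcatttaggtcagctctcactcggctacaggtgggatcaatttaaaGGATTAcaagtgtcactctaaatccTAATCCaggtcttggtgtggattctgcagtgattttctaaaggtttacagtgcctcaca
TAATCC was found in Sag (87 bases before the start), Gucy2e (42 bases) and at 2 places in Gucy2f (84 and 59 bases), and TAATTA only in Arr3 (70 bases). All 10 genes have a RefSeq start, but in the promoter set used here an entry was found for only 7. Arrb1, Rcvrn and Guca1b had none and were not searched. TAATCC lay in 4 of the 7 searched, the other being Guca1a (57 bases before its start), against 6.25% of 32851 mouse promoters of the same length. TAATTA lay in 1 of 7 against 4.84%, the E-box CAGCTG in 2 of 7 (Sag and Arr3) against 13.0%, and a second E-box, CAGATG, in 0 of 7 against 14.4%. Every motif was searched on both strands and no match overlapped another. Grk1 and Pdc held none of these letters in this window. A match describes the sequence and is not by itself a site.

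RNA-seq libraries held 12329548 to 26266746 reads in genes and ATAC-seq libraries 4176776 to 12345845 reads in regions. Each population carried its own defining markers: the summed level of 8 rod markers was 1531310 to 2213112 normalized read counts in rods, that of 8 cone markers 1432740 to 1663150 in blue cones, that of 4 ON bipolar markers 91968 to 102247 in ON-BC against 5736 to 9619 in OFF-BC, and that of 4 OFF bipolar markers 31106 to 52365 in OFF-BC against 1234 to 1618 in ON-BC, with none of these lists' genes at 0 in its own population. Bipolar libraries also held photoreceptor transcripts. Rod markers summed to 26605 to 30882 in pan-BC, while ON-BC had 24140 to 27537 and OFF-BC 5656 to 8724. Cone markers summed to 43340 to 69132 in pan-BC, while ON-BC had 5458 to 6259 and OFF-BC replicates 1, 2 and 3 had 36021, 30462 and 99148. OFF-BC replicate 3 stood apart from the other OFF-BC libraries in cone markers, and results that rest on it are given with and without it. P-values measure the spread between these samples only, and in bulk libraries fewer cells of a type and less RNA per cell cannot be told apart.

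The rod arrestin Sag was abundant in both photoreceptor types, and the cone arrestin Arr3 mainly in blue cones. Sag (chr1:87803680-87845157, GRCm38) had normalized read counts of 357064, 390652 and 323627 in rods, while blue cones had 160729, 225779 and 252594. Its counts were 18790, 14424 and 18541 in pan-BC, with ON-BC at 2935, 4552 and 3091 and OFF-BC at 2955, 2678 and 16458. Every photoreceptor library lay above every bipolar library, and the third OFF-BC library lay within the range of pan-BC while the other OFF-BC libraries lay near ON-BC. Arr3 (chrX:100605497-100618493) was highest in blue cones, at 94244, 88489 and 71844, against 1249, 809 and 915 in rods. In bipolar libraries Arr3 was 3048, 2367 and 3398 in pan-BC, with ON-BC at 229, 205 and 96.4 and OFF-BC at 782, 1294 and 7782. The rod libraries thus lay below all pan-BC libraries and above all ON-BC libraries for the cone arrestin, and ON-BC and OFF-BC did not overlap. Arrb1 (chr7:99535486-99606771) ran the other way, as pan-BC had 331, 267 and 404, ON-BC 379, 399 and 309, and OFF-BC 374, 445 and 425. Its counts fell to 90.3, 65.3 and 79.2 in blue cones and to 3.88, 10.2 and 7.56 in rods, below every bipolar library.

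**Figure D1:**
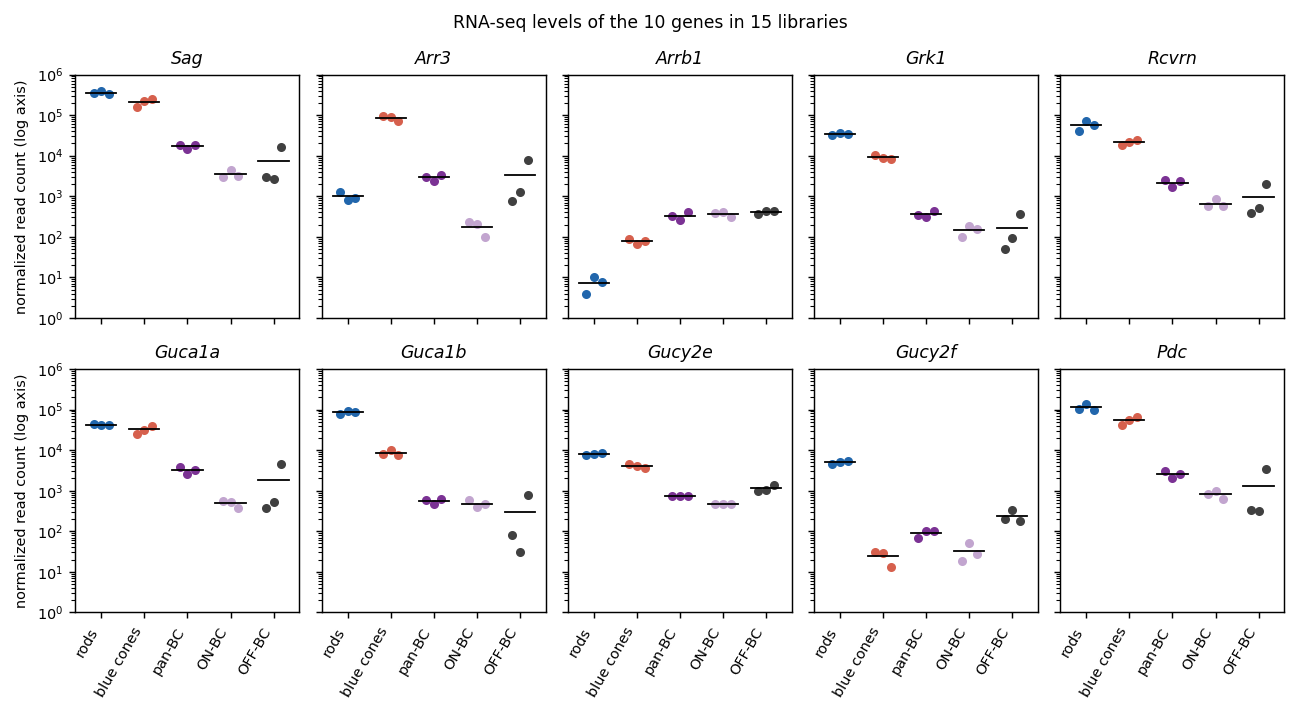
Normalized read count (log axis) of each of the 10 genes in the 15 RNA-seq libraries, 1 panel per gene; points are libraries in the order of their replicate number and bars are population means. 7 of the 10 genes fall from rods through blue cones to the bipolar populations, while Arr3 peaks in blue cones, Arrb1 is lowest in rods, and Gucy2f is lowest in blue cones (13.3 to 30.8).

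The opsin kinase and its calcium-dependent inhibitor were both highest in rods. Grk1 (chr8:13405081-13421951) had 32877, 35263 and 34197 normalized read counts in rods, while blue cones had 10130, 8541 and 8478. It was at 350, 309 and 434 in pan-BC, with ON-BC at 99.1, 183 and 152 and OFF-BC at 50.3, 92.5 and 364. No photoreceptor library overlapped a bipolar library, and the OFF-BC values spanned the ON-BC values. Rcvrn (chr11:67695326-67703355) had 40633, 72292 and 56531 counts in rods, while blue cones had 18727, 22260 and 24721. Its bipolar counts were 2538, 1693 and 2311 in pan-BC, with ON-BC at 562, 839 and 575 and OFF-BC at 393, 508 and 1960. For both genes the third OFF-BC library was the highest of its population and reached the pan-BC range.

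Of the cyclases, Gucy2f separated the photoreceptor types far more than Gucy2e did. Gucy2e (chr11:69218117-69237022) had 7710, 8004 and 8415 normalized read counts in rods, while blue cones had 4620, 4157 and 3699. In bipolar cells it was at 759, 730 and 751 in pan-BC, with ON-BC at 469, 479 and 480 and OFF-BC at 998, 1038 and 1418. All 5 populations were apart for Gucy2e, in the order rods, blue cones, OFF-BC, pan-BC and ON-BC, and this order did not change without OFF-BC replicate 3. Gucy2f (chrX:142079289-142196936) had 4428, 5218 and 5472 counts in rods, while blue cones had only 30.8, 28.8 and 13.3. It was at 68.1, 104 and 100 in pan-BC, with ON-BC at 18.6, 50.0 and 27.7 and OFF-BC at 199, 334 and 178. Blue cones and ON-BC overlapped at the bottom of this order, and both OFF-BC and pan-BC lay above them without overlap. OFF-BC replicate 3, the library high in cone markers, was the lowest OFF-BC library for Gucy2f.

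The activating proteins of the cyclases lie side by side on chromosome 17 in opposite orientation and had unlike profiles. Guca1a (chr17:47394557-47400606) had 43206, 42099 and 40472 normalized read counts in rods, while blue cones had 25548, 31260 and 40356, so that the highest blue cone library came just below the lowest rod library. Pan-BC had 3928, 2575 and 3251, ON-BC 563, 524 and 382, and OFF-BC 377, 529 and 4678. Guca1b (chr17:47385393-47392967) had 77899, 91979 and 88115 counts in rods, while blue cones had 8075, 10034 and 7795. Its counts were 586, 483 and 617 in pan-BC, with ON-BC at 596, 392 and 462 and OFF-BC at 79.4, 30.0 and 801. In OFF-BC 2 libraries were the lowest of all 15 and the third was the highest bipolar library. Pdc (chr1:150319417-150333906), which acts on transducin, had 101806, 138101 and 98375 counts in rods, while blue cones had 41988, 54311 and 65314. Pan-BC had 3035, 2003 and 2587, ON-BC 828, 970 and 621, and OFF-BC 334, 320 and 3341, again with 2 low OFF-BC libraries and 1 just above pan-BC. Without OFF-BC replicate 3 the order of the population means changed for 6 genes, Sag, Arr3, Grk1, Rcvrn, Guca1a and Pdc, in each case by moving OFF-BC down.

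Levels were also divided by exon length to compare genes with each other. In rods Sag led with 207866 ± 19507 normalized counts per kb (SD, n = 3), ahead of Pdc at 90426 ± 17652, and Rcvrn, Guca1b and Guca1a followed at 53188 ± 14906, 51557 ± 4361 and 46792 ± 1535 with overlapping ranges. Grk1 was far lower, at 4591 ± 161 per kb, and below it came Gucy2e at 965 ± 42.5, Arr3 at 729 ± 169, Gucy2f at 504 ± 54.5 and Arrb1 at 1.02 ± 0.449. In blue cones Sag was again first, at 124001 ± 27497 per kb, and Arr3 came next at 62442 ± 8560 without overlap. The visual arrestin of rods was thus the more abundant arrestin transcript of these Nrl-/- cones as well, in each of the 3 libraries. Within pairs, the per-kb level of Arr3 was 53.2% ± 19.3 of that of Sag in blue cones and 0.354% ± 0.0902 in rods, with pan-BC at 21.5% ± 1.47, ON-BC at 6.5% ± 3.04 and OFF-BC at 51.4% ± 15.6. For the cyclases, Gucy2f was at 52.1% ± 3.7 of the per-kb level of Gucy2e in rods but at 0.478% ± 0.155 in blue cones. The same ratio was 10.2% ± 2.35 for pan-BC, 5.6% ± 2.78 for ON-BC and 18.0% ± 8.27 for OFF-BC, so all bipolar libraries (3.3% to 26.8%) lay between the photoreceptor types. For the activating proteins, Guca1b was at 110% ± 11.7 of Guca1a per kb in rods and 14.9% ± 3.89 in blue cones. It stood at 54.0% ± 12.7 in ON-BC, 9.43% ± 1.22 in pan-BC and 7.86% ± 4.29 in OFF-BC, so that the ON-BC libraries (40.2% to 65.0%) lay between those of rods and those of the other populations.

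The comparison of pan-BC with rods asked which shutoff genes differ between the bipolar class and the main photoreceptor. The test was limma's treat against a log2 fold change of 1 on log2(normalized count + 1), with Benjamini-Hochberg adjustment over 14024 genes and a threshold of 0.05, and all 10 genes passed the filter on low counts. 8 of the 10 genes were lower in pan-BC, against 15.8% of all genes tested, and 1, Arrb1, was higher, against 27.8%. Guca1b differed most, with a log2 fold change of -7.26 ± 0.70 (SE, adjusted p = 3.8e-07), followed by Grk1 at -6.56 ± 0.45 and Gucy2f at -5.80 ± 0.35. The change was smallest among the called genes for Gucy2e, at -3.43 ± 0.12 (adjusted p = 9.35e-12). Sag, Rcvrn, Guca1a and Pdc lay in between, at -4.38, -4.68, -3.71 and -5.47. Arrb1 was higher in pan-BC by 5.41 ± 0.27 (adjusted p = 1.35e-10). Arr3 was not called at 1.58 ± 0.56 (adjusted p = 0.312), although its 3 pan-BC libraries lay above the 3 rod libraries. It was called when only the compared libraries were fitted (adjusted p = 0.0104) and in a test against no change (adjusted p = 0.016).

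Against blue cones, 8 genes were lower in pan-BC (13.7% of all genes) and 2 higher (22.7%). Arr3 had a log2 fold change of -4.86 ± 0.56 (adjusted p = 1.03e-05), Grk1 of -4.64 and Pdc of -4.40. Guca1b had a value of -3.94 ± 0.70, Sag of -3.61, Rcvrn of -3.34, Guca1a of -3.31 and Gucy2e of -2.47, with adjusted p from 1.28e-08 to 0.00221. Arrb1 was higher by 2.07 ± 0.27 (adjusted p = 0.00187). Gucy2f was higher in pan-BC by 1.92 ± 0.35 (adjusted p = 0.028), and this call was lost with DESeq2 (adjusted p = 0.0656), with only the compared libraries (0.0505), and without pan-BC replicate 2 (0.0882), pan-BC replicate 3 (0.0785) or blue cone replicate 3 (0.158).

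Rods and blue cones, both from day 56 and from the same earlier work, were told apart by 4 of the 10 genes. Gucy2f and Guca1b were higher in rods (4.63% of all genes), by 7.72 ± 0.35 (adjusted p = 7.14e-11) and 3.32 ± 0.70 (adjusted p = 0.0163). Arr3 and Arrb1 were lower in rods (11.3% of all genes), at -6.43 ± 0.56 (adjusted p = 4.1e-07) and -3.34 ± 0.27 (adjusted p = 1.55e-06). Beside Arrb1, which was higher in bipolar cells than in photoreceptors, the summed bipolar markers (32109 to 37268 against 7154 to 8003) and Müller glia markers (13481 to 16903 against 1682 to 2695) were also higher in blue cones than in rods, with none of either list at 0, and their part in the difference was not tested. The other 6 genes did not pass: Grk1 at 1.92 ± 0.45 (adjusted p = 0.154), Rcvrn at 1.34, Pdc at 1.07, Gucy2e at 0.96, Sag at 0.77 and Guca1a at 0.40. Each was higher in every rod library than in any blue cone library. The share of all genes apart in this way was not counted, and 8068 of 14024 genes passed a test against no change. Grk1 passed with edgeR (adjusted p = 0.0202), with only the compared libraries (0.000122) and without OFF-BC replicate 3 in the shared model (0.00314).

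**Figure D2:**
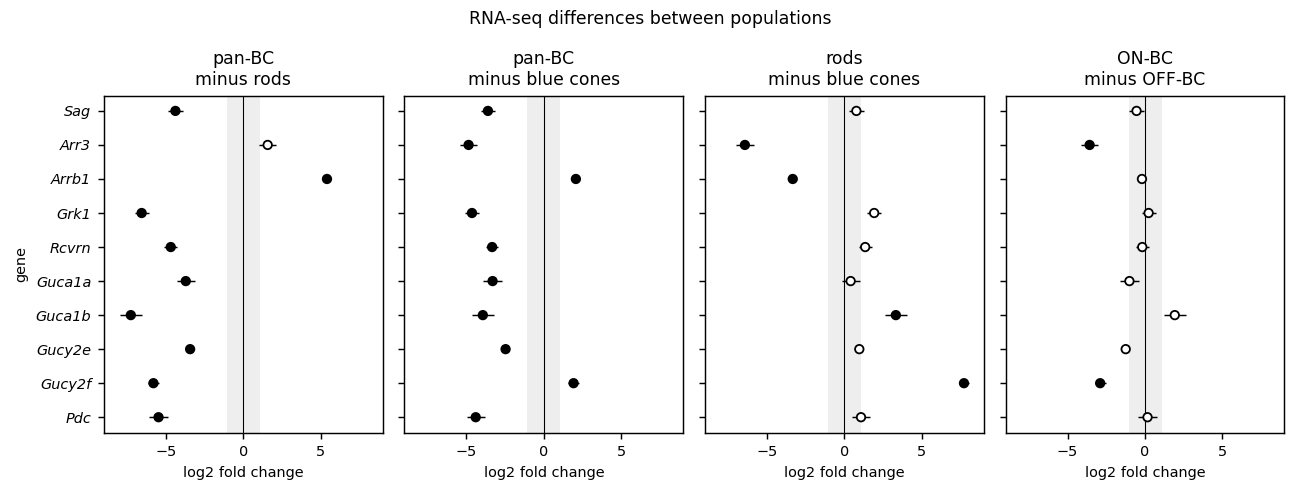
Log2 fold change on the log2(normalized count + 1) scale, for each of the 10 genes in the 4 RNA-seq comparisons; bars are standard errors, filled points passed the test (adjusted p below 0.05) and the grey band marks changes within 1 on the log2 scale. Pan-BC lie below rods and blue cones for most genes, Gucy2f and Arr3 point in opposite directions between rods and blue cones (7.72 and -6.43), and only Arr3 and Gucy2f pass between ON-BC and OFF-BC.

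Between ON-BC and OFF-BC, 2 of the 10 genes were lower in ON-BC (3.60% of all genes) and 0 were higher (2.95%). Arr3 was at -3.58 ± 0.56 (adjusted p = 0.00306) and Gucy2f at -2.90 ± 0.35 (adjusted p = 0.000834), and both stayed called in all 15 alternatives. Without OFF-BC replicate 3, Arr3 was at -2.60, its OFF-BC mean falling from 3286 to 1038. Marker levels in the same libraries are given beside both genes. Arr3 was highest in the OFF-BC library with the most cone transcripts, and the cone marker sum was itself higher in every OFF-BC library than in every ON-BC library. In OFF-BC replicates 1 and 2 that sum came mostly from Gnat2 (16557 and 13813) and Gngt2 (at least 9131). Opn1sw was 4477 and 4314 there, against 55813 in replicate 3 and 447 to 822 in ON-BC. Gucy2f was 13.3 to 30.8 in blue cones and 4428 to 5472 in rods. It was higher in OFF-BC than in ON-BC, and the rod marker sum was lower in OFF-BC. Most of that sum in OFF-BC was Gngt1 (mean 5723), which was not confined to rods (mean 39100 in blue cones). The part of photoreceptor RNA in either difference was not tested. Gucy2e was also lower in every ON-BC library than in any OFF-BC library, at -1.25 ± 0.12, and did not pass the test against 1 (adjusted p = 0.281) but passed a test against no change (adjusted p = 5.93e-07). Guca1b had a value of 1.92 ± 0.70 (adjusted p = 0.935) with all libraries and of 3.26 without OFF-BC replicate 3 (adjusted p = 2.23e-05), when the populations no longer overlapped. For Sag, Grk1, Rcvrn, Guca1a and Pdc the populations overlapped, and each value (from -1.01 to 0.23) changed sign under at least 1 alternative.

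To place the bipolar levels beside the photoreceptor transcripts found in the same libraries, each bipolar value was expressed as a percent of the rod mean. The median over the 10 genes was 4.35% for pan-BC, 1.08% for ON-BC and 3.25% for OFF-BC, or 0.939% for OFF-BC without replicate 3. These medians take in Arr3 (296%, 17.8% and 332% in pan-BC, ON-BC and OFF-BC) and Arrb1 (4620%, 5010% and 5730%). Both were lower in rods than in blue cones, and they raise the medians. Rod markers, a list without such genes, had medians of 0.836% for pan-BC, 0.781% for ON-BC and 0.0722% for OFF-BC. Gnat1, the rod transducin alpha subunit, stood at 0.0887%, 0.0537% and 0.083% of the rod level in the OFF-BC libraries. In the same libraries Gucy2e stood at 12.4%, 12.9% and 17.6% and Gucy2f at 3.95%, 6.63% and 3.53%, where Gngt1, the rod transducin gamma subunit, was at 6.52%, 5.94% and 9.16% and the other 7 rod markers at 0.0221% to 0.171%. Gucy2e thus lay above every rod marker in each OFF-BC library, and Gucy2f above all but Gngt1 in 2 of them and above all in the other. In ON-BC, Gucy2e was at 5.84% to 5.97%, below Gngt1 at 8.2% to 10.3%, while Gucy2f was at 0.369% to 0.992% and Guca1b at 0.456% to 0.694%, the last pair within the range spanned by the rod markers Pde6b and Gnat1 (0.296% to 1.05%). In pan-BC, Gucy2e was at 9.08% to 9.44%, Guca1a at 6.14% to 9.37% and Sag at 4.04% to 5.26%, against 0.915% to 1.1% for Gnat1 and 9.3% to 10.5% for Gngt1. Against the blue cone mean, the cone markers had medians of 3.85% in pan-BC and 0.236% in ON-BC, and of 0.733%, 1.72% and 6.49% in the OFF-BC libraries. Gngt2 was the highest of them in OFF-BC, at 54.7%, 40.6% and 63.0%. Sag, Rcvrn, Guca1a, Pdc, Grk1, Guca1b and Gucy2e were highest in OFF-BC replicate 3, as the cone markers were, and Gucy2f was not. The part of cone RNA in the bipolar levels was not tested.

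**Figure D3:**
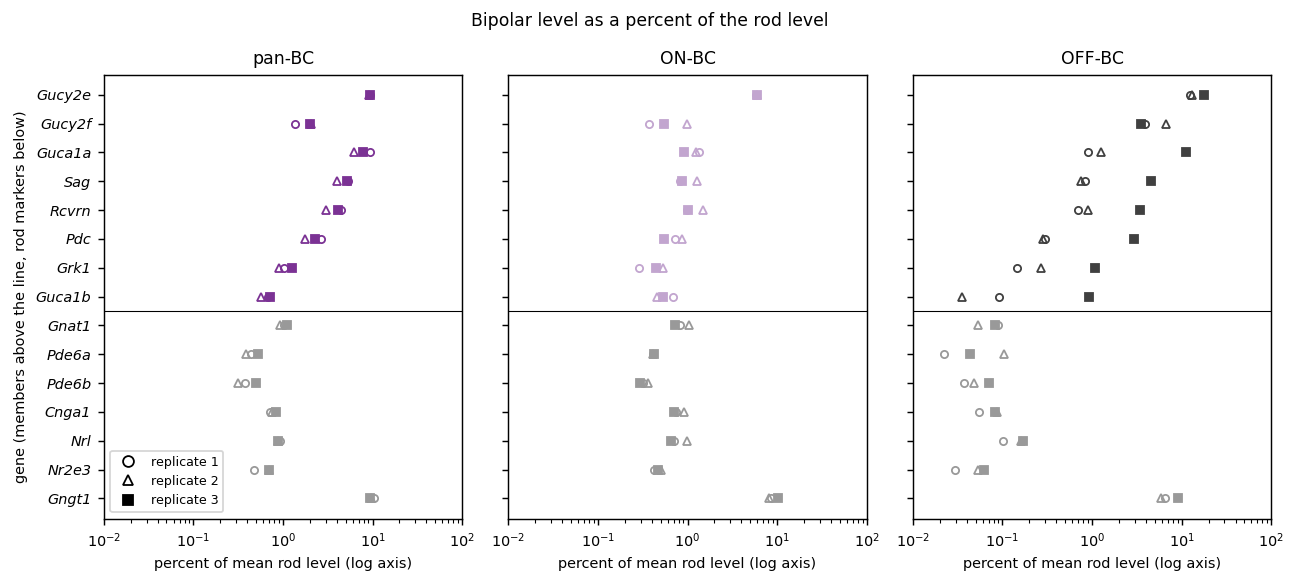
Each bipolar library's level as a percent of the mean rod level (log axis), for the 8 shutoff genes other than Arr3 and Arrb1 (above the line) and for 7 of the 8 rod markers (below it); circles, triangles and squares are replicates 1, 2 and 3. In OFF-BC the rod markers other than Gngt1 sit at 0.0221% to 0.171%, and Gucy2e and Gucy2f sit at 3.53% to 17.6%. Replicate 3 is the highest OFF-BC library for every shutoff gene shown except Gucy2f.

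The rest of the phototransduction cascade served as background, with 23 listed genes, all tested. For each comparison the shares of all genes called are those given above, such as 27.8% higher and 15.8% lower in pan-BC than in rods. In pan-BC against rods 12 were lower and 5 higher (median log2 fold change -3.33, against -4.53 for the 10 shutoff genes and 0.21 for all genes), led by Pde6b at -8.00, Gnb1 at -7.95 and Pde6a at -7.79, which encode the rod phosphodiesterase subunits and a transducin beta subunit. In pan-BC against blue cones 15 were lower and 3 higher (median -2.35, against -3.48 and 0.16), led by Pde6c at -8.64, Opn1mw at -7.47 and Cnga3 at -6.24, the cone phosphodiesterase, an opsin and a cone channel subunit. Rods against blue cones split them, with 9 higher and 10 lower (median 1.00, against 1.01 and 0), with Cnga1 at 9.19 and Gnat1 at 8.91 among the largest. ON-BC against OFF-BC gave 7 higher and 7 lower (median 0.21, against -0.38 and -0.02), with Opn1sw at -3.96 and Pde6h at -3.68 among the largest. The 7 lower genes were all cone-type, as Arr3 is, and the 7 higher ones were 5 rod-type genes and the beta subunits Gnb3 and Gnb5, a grouping made after their values were seen.

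Relatives of the shutoff genes outside the photoreceptor cascade were mostly higher in bipolar cells. Of 20 tested, 12 were higher and 3 lower in pan-BC than in rods (median 4.11), and 11 higher and 3 lower than in blue cones (median 2.49). The shares of all genes are those given above for each comparison, such as 27.8% higher and 15.8% lower than in rods. Among soluble and receptor cyclases, Gucy1a2, Gucy1a3 and Gucy1b3 were higher than in rods by 6.49, 7.62 and 7.53, and Npr2 by 7.08. Among neuronal calcium sensors, relatives of recoverin, Hpca, Vsnl1, Ncald, Ncs1 and Hpcal4 were higher by 8.00, 7.22, 6.52, 6.34 and 4.27, while Hpcal1 was lower, at -5.48. Among receptor kinases, Adrbk2 and Adrbk1 were higher by 5.39 and 2.31 and Grk4 was lower, at -1.70 (lost without pan-BC replicate 1 or 2 or rod replicate 1 or 3, adjusted p = 0.0549 to 0.117), as was the phosducin relative Pdcl, at -1.76. The other beta-arrestin, Arrb2, was not called, at 0.40 (adjusted p = 1.00), so that the arrestin difference between pan-BC and rods passed for Arrb1 and not for Arrb2. Gucy2d had 7.06 to 21.3 normalized counts in pan-BC and 0 in every rod and blue cone library. Against blue cones the called relatives were the same except that Hpcal4 (1.09) and Grk4 (-0.88) were not called and Npr1, at -2.29 (adjusted p = 0.0394), was, a call lost in 8 alternatives, among them the omission of any 1 of the 6 compared libraries (0.0551 to 0.0885). Rods had lower levels than blue cones of Gucy1a2 (-2.13), Gucy1b3 (-2.19), Hpcal4 (-3.17), Ncs1 (-3.78) and Npr2 (-2.77), and 0 relatives were higher (median -0.19). The call of Gucy1a2 was lost in 6 alternatives, among them adding 4 (adjusted p = 1.00), DESeq2 (0.167) and the omission of rod replicate 1 or 2 or blue cone replicate 2 or 3 (0.0505 to 0.0713). That of Gucy1b3 was lost in 3, with only the compared libraries (0.0549) and without rod replicate 2 (0.0579) or blue cone replicate 3 (0.0569). ON-BC had lower Adrbk2 (-4.73) and Hpcal4 (-2.23) than OFF-BC, with 0 higher (median 0.01).

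Gene profiles most like those of the 10 genes were sought among 10150 genes with a mean of at least 100 normalized counts, by Pearson's r of log2(normalized count + 1) over the 15 libraries, which fall into 5 populations and are therefore not independent points. Sag was most like Rp1l1 (0.994), Pdc and Rcvrn (0.993 each), Rcvrn most like Pde6g (0.998), Pdc and Sag, and Pdc most like Vtn (0.999), Rcvrn and Cabp4 (0.994 each). Grk1 had Cabp4, Casz1 (0.995 each) and Slc16a6 (0.993), and Guca1a had Sag (0.991), Vtn (0.983) and Rp1l1 (0.982). Guca1b had Prph2 (0.982), Hs3st3b1 (0.981) and Mid1ip1 (0.98). Arr3 stood with Opn1sw, Pde6h (0.989 each) and Cckbr (0.988), and Arrb1 with Chst10 (0.997), Dagla (0.996) and Lrrfip1 (0.995). The cyclases had no like gene in common, with Abca4 (0.997), Galnt4 (0.996) and Rffl (0.994) for Gucy2e and Mterfd3 (0.971), Slc38a6 (0.963) and Tor1aip2 (0.956) for Gucy2f. The highest r of Gucy2f was the lowest of the 10 genes' highest values.

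Chromatin at the starts of these genes was compared in 60 regions of 200 bases, each assigned to the gene with the nearest start, of which 9 lay from 1000 bases before to 100 bases after a start. The test was the same limma model over 12 libraries and 108448 regions. Grk1's region (155 bases before the start) had normalized counts of 893 and 926 in rods, while blue cones had 365 and 351, green cones 423 and 421, pan-BC 49.6 and 31.9, ON-BC 29.9 and 24.9, and OFF-BC 144 and 104. Guca1b's region (70 bases before) had 934 and 952 in rods, while blue cones had 218 and 214, green cones 359 and 351, and the bipolar libraries 10.5 to 38.8. At both genes the photoreceptor types kept the order of the RNA, with rods highest. Arr3's region (40 bases before) had 123 and 119 in rods, while blue cones had 280 and 270, green cones 169 and 173, pan-BC 20.0 and 17.7, ON-BC 5.97 and 16.1, and OFF-BC 48.5 and 41.9. It was the only one of the 9 with higher counts in cones than in rods. Gucy2f's region (118 bases before), which holds both TAATCC letters printed above, had 239 and 204 in rods, while blue cones had 94.5 and 45.5, green cones 96.0 and 66.2, pan-BC 33.6 and 30.2, ON-BC 25.4 and 29.3, and OFF-BC 51.2 and 13.6. Blue cones had more reads than pan-BC at the start of Gucy2f in each library, short of the test's threshold, while its RNA was higher in pan-BC. Regions of Sag, Rcvrn, Guca1a, Gucy2e and Pdc had 264 to 585 in rods, while blue cones had 88.1 to 345, green cones 104 to 320 and bipolar libraries 0 to 127.

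In pan-BC against rods, 9 of 9 start regions were lower (11.2% of all regions) and 0 higher (40.3%), from -2.59 ± 0.24 for Gucy2e to -4.88 ± 0.24 for Guca1b (adjusted p = 1.17e-09). Against blue cones 7 of 9 were lower (7.13%) and 0 higher (28.8%), and Rcvrn at -2.37 ± 0.67 (adjusted p = 0.0714) and Gucy2f at -1.02 ± 0.45 (adjusted p = 0.771) did not pass. Rcvrn passed in 6 of 13 alternatives and Gucy2f in 0. Rods exceeded blue cones at 1 start, Guca1b, by 2.12 ± 0.24 (adjusted p = 0.00249), against 1.46% of all regions, and lay below them at 0 (8.56%). Rods against green cones gave 0 of 9 in either direction (0.278% higher and 10.9% lower among all regions), where edgeR called 1 and a test against no change 7. ON-BC were lower than OFF-BC at 3 starts (2.80% of all regions) and higher at 0 (4.58%). Those were Grk1 at -2.13 ± 0.22 (adjusted p = 0.00248), called in all 13 alternatives, Rcvrn at -4.03 ± 0.67 (adjusted p = 0.00497) and Arr3 at -2.08 ± 0.34 (adjusted p = 0.038). Rcvrn had 0 and 11.7 in ON-BC against 62.0 and 52.6 in OFF-BC, and its call was lost with only the compared libraries (0.0526) and without OFF-BC replicate 1 (0.0642). Arr3 stayed called in 6 of 13 alternatives. The start of Gucy2f, whose RNA was higher in OFF-BC, overlapped between ON-BC and OFF-BC at 0.03 ± 0.45. Scaling by edgeR's TMM moved the median of all regions by -0.19 in pan-BC against rods, -0.28 in pan-BC against blue cones and -0.21 in ON-BC against OFF-BC, where calls that were higher made up 51.6% of all calls with TMM and 62.1% with the authors' scaling. All of the 9, 7 and 3 calls held with TMM, which added Rcvrn against blue cones (adjusted p = 0.0278) and Guca1a in ON-BC against OFF-BC (adjusted p = 0.0483).

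**Figure D4:**
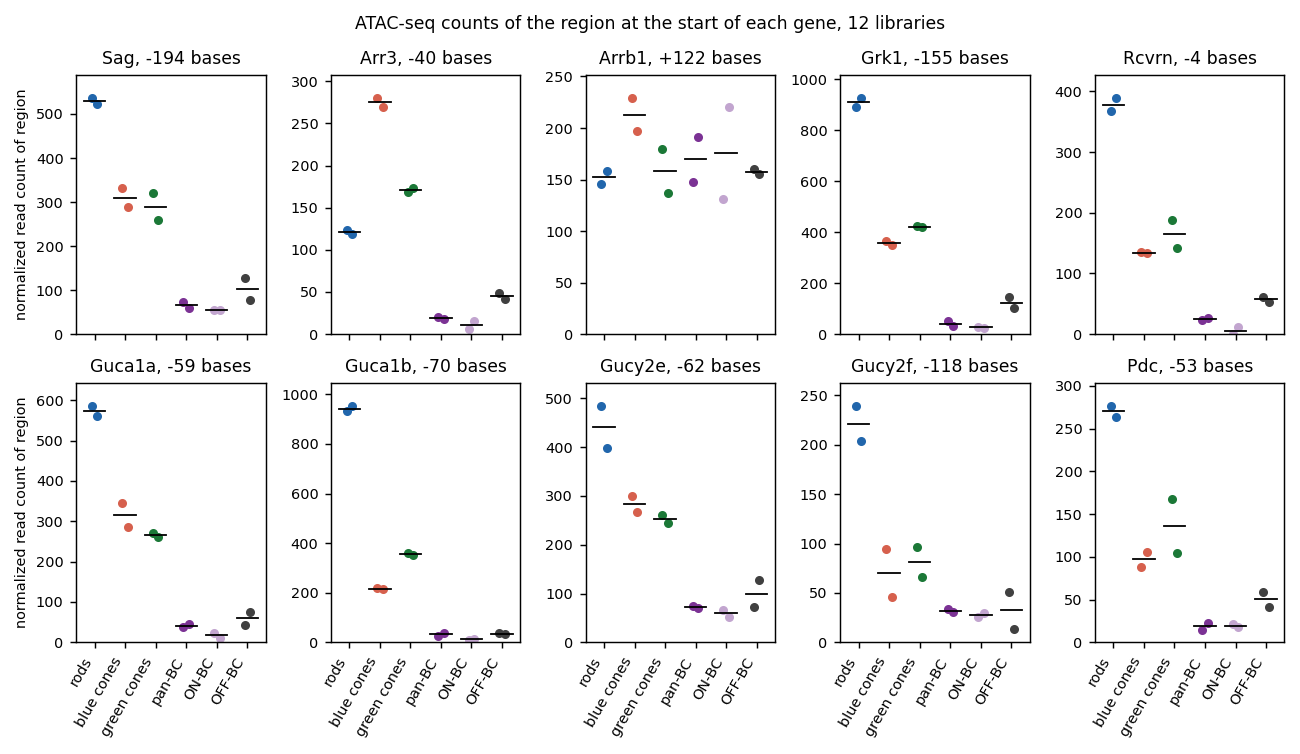
ATAC-seq normalized read count of the region at the start of each gene in 12 libraries, 1 panel per gene, each with its own linear axis from 0; points are libraries, bars are population means and the titles give the distance of the region's centre from the start in bases. Rods are highest at 8 of the starts and blue cones at that of Arr3, while the region at the start of Arrb1 has 131 to 229 in all populations.

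At Arrb1 the start did not follow the RNA. Its region (122 bases after the start) had 148 and 191 in pan-BC, while rods had 146 and 158 and blue cones 229 and 197, with a difference of 0.15 ± 0.24 between pan-BC and rods (adjusted p = 1.00). A region 25.3 kb before the start (chr7:99510132-99510331, intergenic) had 122 and 143 in pan-BC, while ON-BC had 139 and 193 and OFF-BC 62.0 and 64.2. There rods had 3.12 and 4.07, blue cones 0 and 1.45, and green cones 4.61 and 4.22, so every bipolar library was above every photoreceptor library. Pan-BC exceeded rods by 4.86 ± 0.50 (adjusted p = 2.59e-06) and blue cones by 6.41 ± 0.50 (adjusted p = 6.1e-07). These are differences on the log2(count + 1) scale. Calls in favour of pan-BC were common, at 40.3% of all regions against rods and 28.8% against blue cones. Of the 2 regions nearest Arrb1, only the distal region was called in these comparisons. It was assigned to Arrb1 by nearest start alone, and its part in the RNA difference was not tested.

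Regions away from the start of Gucy2f were described as well. Of its 7 regions, 3 were called higher in pan-BC than in rods, near the share of all regions (40.3%), whose median difference was 1.16. Against blue cones 4 were called higher, beside 28.8% of all regions (median 0.54). The region 3.5 kb before it (chrX:142200377-142200576, intergenic) had 108 and 87.8 in pan-BC, while ON-BC had 110 and 123, OFF-BC 83.5 and 80.8, rods 27.3 and 36.6, blue cones 13.0 and 15.9, and green cones 17.7 and 21.1. Pan-BC exceeded blue cones there by 2.68 ± 0.31 (adjusted p = 0.000203), and the value against rods, 1.59 ± 0.31, did not pass (adjusted p = 0.0664). An exonic region 7.5 kb into the gene (chrX:142189352-142189551) had 66.4 and 86.7 in pan-BC, while ON-BC had 109 and 99.6, OFF-BC 44.5 and 42.8, and rods 14.8 and 21.7. Pan-BC exceeded rods there by 2.02 ± 0.35 (adjusted p = 0.0097), a call that was lost without pan-BC replicate 2 or rod replicate 1 (0.0774 and 0.0838). Its value against blue cones, 1.62 ± 0.35, did not pass (adjusted p = 0.111). At both regions each OFF-BC library lay below each ON-BC library, whereas the RNA was higher in OFF-BC, and neither difference passed the test. A last intergenic region nearest Gucy2f, 192.3 kb from its start and past its end, had 18.8 to 43.9 in pan-BC and ON-BC, while OFF-BC had 5.39 and 5.84 and all rod and blue cone libraries 0. Single distal regions were also higher in pan-BC for Pdc, 52.7 kb before its start (2.81 ± 0.59 against blue cones, adjusted p = 0.0124, and 2.19 ± 0.59 against rods, 0.0577), and for Rcvrn, 47.4 kb before its start in an intron of Gas7 (1.89 ± 0.42 against rods, adjusted p = 0.0496, and 0.36 ± 0.42 against blue cones, 1.00).

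Rod-high regions away from starts belonged to Guca1b and Rcvrn among others. The region 3.3 kb before Guca1b (chr17:47381999-47382198, intergenic) had 776 and 793 in rods, while blue cones had 192 and 204, green cones 240 and 224 and bipolar libraries 21.4 to 63.9. Rods exceeded blue cones by 1.98 ± 0.26 (adjusted p = 0.011) and green cones by 1.76 ± 0.26 (adjusted p = 0.0447). At the last exon of Rcvrn, 7.9 kb from its start (chr11:67703160-67703359), counts were 407 and 379 in rods, while blue cones had 46.6 and 54.9, green cones 112 and 88.7 and bipolar libraries 5.60 to 14.9. Rods exceeded blue cones by 2.93 ± 0.33 (adjusted p = 0.000303) and green cones by 1.97 ± 0.33 (adjusted p = 0.0414). The differences of rods from green cones were lost when any 1 library of either population was left out, and that of Guca1b from blue cones likewise, with adjusted p from 0.0575 to 0.0855. Over all 60 regions, pan-BC were higher than rods in 5 and lower in 35 (median -2.42, against 1.16 for all regions), and higher than blue cones in 6 and lower in 22 (median -1.48, against 0.54). Rods were higher than blue cones in 6 and lower in 0 (median 1.08, against -0.20). They were higher than green cones in 2 and lower in 0 (median 0.89, against -0.44). ON-BC were lower than OFF-BC in 7 and higher in 0 (median -0.78, against 0.15). Of all regions, pan-BC were higher than rods in 40.3% and lower in 11.2%, and higher than blue cones in 28.8% and lower in 7.13%. Rods were higher than blue cones in 1.46% and lower in 8.56%, and higher than green cones in 0.278% and lower in 10.9%. ON-BC were lower than OFF-BC in 2.80% of all regions and higher in 4.58%.

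**Figure D5:**
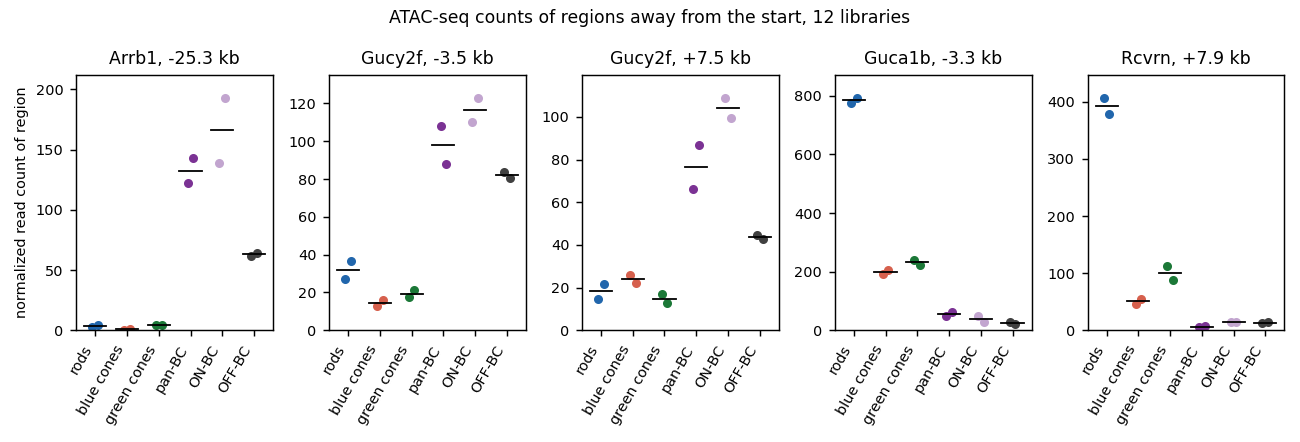
ATAC-seq normalized read count of 5 regions away from a start in 12 libraries, each panel with its own linear axis from 0; points are libraries, bars are population means and titles give the distance from the start in kb. The regions of Arrb1 and Gucy2f are highest in bipolar libraries, and those of Guca1b and Rcvrn in rods.

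Peaks, which the authors called in each of 14 libraries with 2 double-sorted green cone libraries included, lay over the start window in 125 of 140 pairs of gene and library. Sag, Arrb1 and Gucy2e had a peak in all 14 libraries, and Pdc in the fewest, 10. Rods, blue cones and single-sorted green cones had a peak at all 10 genes in both libraries. Pan-BC had 18 of 20, OFF-BC 19 of 20 and ON-BC 9 of 20. ON-BC libraries held 4719715 and 4992922 reads and 66147 and 69435 peaks in all. OFF-BC libraries held 4498372 and 5723557 reads and 60594 and 54772 peaks. The share of all promoters with a peak was not counted for any population, so these counts cannot be read as particular to the 10 genes. The part of depth in them was not tested. Of the 125, 110 had a -log10 q-value of at least 10. A summit lay inside the window in 107 pairs, and in 0 of 14 libraries for Arrb1.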

How the data were processed

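RNA was measured in 15 libraries and accessible chromatin in 12 tabulated ATAC-seq libraries plus the peaks of 2 double-sorted green cone libraries. The authors deposited normalized signal, counts per gene or per 200-base region divided by 1 size factor per library. Whole reads could be recovered from all values above 0 (100% of 230384 gene values and of 1212862 region values, within 0.01 read). Per the submitters' processing notes and the study's methods, RNA reads were aligned with STAR 2.7.0d to GRCm38/mm10 and counted over RefSeq genes with HTSeq 1.9. ATAC-seq fragments over 150 bases were dropped, and Picard 2.19.0, featureCounts and HOMER 4.8 were used. The authors called peaks with MACS2 2.1.1 in each library and deposited their fold enrichment (a ratio) and -log10 q-values. Photoreceptor libraries from earlier work went through the same steps.

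Values were transformed as log2(normalized count + 1) and fitted with limma 3.58.1 (treat, trended prior) over all libraries of an assay in R 4.3.3, after edgeR 4.0.16's filter on low counts, which kept 14024 genes and 108448 of 110715 regions. No genes were set aside for photoreceptor RNA in bipolar libraries, unlike in the study's own lists. edgeR and DESeq2 1.42.0 on the recovered reads, TMM scaling, other added constants, no filter, a test against no change, only the compared libraries, a replicate block and the omission of each library were alternatives. The omission of OFF-BC replicate 3 from the other comparisons was chosen after seeing the data. The models were tested on simulated data.

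The 10 genes and the marker, phototransduction and relative lists were chosen with earlier results of these data known. All 10 genes were described in every library. The values of 1 other phototransduction gene are not reported here. Of the other phototransduction genes the 3 largest called changes per comparison were named, of the relatives each called gene, and for each of the 10 genes the 3 genes most like it with a mean of at least 100. Gene and RefSeq promoter positions are GRCm38. A start region lay from 1000 bases before to 100 bases after a RefSeq start, and regions went to the nearest start. Replicates of a population differed by more than sampling noise (chi-square per feature of 6.79 to 65.4 for RNA and 2.33 to 4.28 for ATAC-seq). DESeq2 gave no adjusted p for Guca1b. Tables and figures were made with Python 3.11.15, pandas 2.3.3, numpy 2.4.6 and matplotlib 3.10.9.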

Additional observations from a re-analysis of the deposited data

How the results depend on the processing

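Of 2268 RNA values under alternatives, 2215 kept direction and side of the threshold, 33 lost a call, 10 gained one and 10 turned sign. Of 832 ATAC-seq values, 759 were kept, 32 lost a call, 36 gained one and 5 turned sign, and the causes were not tested. All sign changes were between ON-BC and OFF-BC in uncalled values. Over omitted libraries Sag ran from -1.01 to 0.30, Grk1 from -0.39 to 1.03, Rcvrn from -0.62 to 0.53, Guca1a from -1.70 to 0.11 and Pdc from -0.42 to 1.28, with the highest value of each reached without OFF-BC replicate 3. edgeR and DESeq2 gave -0.20 and -0.22 for Grk1 and -0.70 and -0.72 for Pdc. The start of Gucy2f was at -0.18 with TMM, -0.39 with edgeR, -0.20 with DESeq2 and -0.88 to 0.95 over omitted libraries.

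Tested against no change, 11156, 10704, 8068 and 3783 genes were called in pan-BC against rods, pan-BC against blue cones, rods against blue cones and ON-BC against OFF-BC, in place of 6112, 5092, 2231 and 919, and 7 of the 10 genes in place of 4 between rods and blue cones, where higher calls went from 29.1% to 47.2%. All called regions rose to 66171 (from 38966) in pan-BC against blue cones, 37557 (from 10871) in rods against blue cones, 43268 (from 12159) in rods against green cones and 26416 (from 8010) in ON-BC against OFF-BC, and start regions to 8, 7 and 8 in the last 3 comparisons (from 1, 0 and 3). edgeR called 19112, 21910 and 12927 regions there and 2, 1 and 5 start regions, and only the compared libraries gave 4, 1 and 1. Adding 4 left 8014 regions between rods and green cones, and DESeq2 left 4762 between ON-BC and OFF-BC. Omitting 1 library left 7091 to 8358, 6710 to 9797 and 4175 to 6118 regions in the same 3 comparisons, the fewest without blue cone replicate 1, green cone replicate 2 and OFF-BC replicate 1.

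Higher calls among regions went from 78.2% to 68.2% in pan-BC against rods (no change). In pan-BC against blue cones they went from 80.2% to 67.6% (edgeR) and 68.4% (no change), in rods against blue cones from 14.6% to 39.7% (no change) and 28.1% (only compared), and in rods against green cones from 2.48% to 32.6% (no change). In ON-BC against OFF-BC they went from 62.1% to 75.9% (adding 4), 51.6% (TMM), 78.9% (DESeq2), 84.0% (only compared) and 47.4% and 43.0% without ON-BC replicates 1 and 2. With CPM values the median percent of the rod level was 5.57% in pan-BC and 1.38% in ON-BC, and over omitted libraries it was 0.939% to 3.88% in OFF-BC.

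Same-numbered ON-BC and OFF-BC libraries shared genotype and age (days 43, 48 and 42 for RNA, 42 and 46 for ATAC-seq), and no source used here says whether they shared animals, so they were not treated as pairs. Correlations of same-numbered deviations were -0.0763, 0.222 and -0.0649 between ON-BC and OFF-BC, -0.0813 to 0.0812 in the other RNA comparisons and -0.0274 to 0.0188 in ATAC-seq. In the 4 RNA comparisons 2, 0, 5 and 2 of 6 libraries correlated best with their own number. For ATAC-seq, with 2 libraries per population, that count could only be 4 of 4 or 0 of 4. It was set by the sign of 1 correlation, such as 0.000174 in ON-BC against OFF-BC. The ATAC-seq count therefore cannot tell whether libraries were paired. With the replicate block 9, 10, 4 and 2 of the 10 genes were called, and 9, 7, 1, 0 and 3 start regions. The block ended 1 call among 235 values, that of the last exon of Rcvrn between rods and green cones (1.97, adjusted p = 0.0516).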
